A study of Homo sapiens with 5 samples.

Results

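Histones are encoded by a large gene family, and 77 of its members were examined for PHF8 at their promoters in SKMEL-147 melanoma cells. Members were the protein-coding genes of GENCODE release 44 (lifted to GRCh37) with symbols starting H1-, H2AC, H2BC, H3C or H4C, or belonging to the H2AZ, H2AX, H3-3, MACROH2A and H2AJ variants. They were chosen by name alone, 77 of 20162 protein-coding genes. By position, 51 lie in the clusters of chromosome 6, 10 in the cluster of chromosome 1 and 8 at other locations, and 8 are variants. SKMEL-147 is an established human melanoma cell line, and the data come from 1 group of 3 ChIP-seq replicates (A, B1 and B2) made with an anti-PHF8 antibody. The labels give no treatment or genetic change for these libraries, and 2 input libraries (A and B) from the same line are not analysed here on their own. Nothing says whether the replicates came from separate cultures, so a p-value over them measures only the spread between these samples. B1 and B2 share a letter in the labels, and a single input carries that letter, so the pair may be closer to each other than to A, while every SD and test here counts them as separate replicates. The libraries analysed here hold no expression values, so the cell type was not checked by markers, and they include no second condition.

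PHF8 is a histone demethylase with a Jumonji catalytic domain that acts on mono- and dimethylated H3K9 and on H4K20me1, and its PHD finger binds trimethylated H3K4, a mark of active promoters. Most histone genes in the clusters are short, intronless and copied into RNA in S phase, when new DNA is packed into nucleosomes. Their transcripts end in a stem-loop in place of a poly(A) tail. NPAT drives their transcription, and SLBP binds the stem-loop. Variants such as H2A.Z, H3.3 and macroH2A come from genes outside these clusters, with introns and polyadenylated transcripts. Cells make these variants outside S phase too.

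A gene was counted as bound when a peak overlapped the 1 kb on either side of any of its transcription start sites (TSSs) in all 3 replicates. The strength of a bound gene is the fold enrichment of its strongest such peak, a linear ratio of ChIP fragments over the local background at the summit. Because this scale differs between replicates, strength is also given as a percentile among the 12139 bound protein-coding genes of the same replicate. Where 3 values follow each other they stand in the order A, B1 and B2. The lists hold 21506, 20882 and 20120 peaks. The median fold enrichment of bound protein-coding genes was 33.4, 19.4 and 18.4, which rested on a median of 97, 64 and 63 ChIP fragments at the summit. Read totals are not given in the sources used here, so depth is known only from these fragments.

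PHF8 peaks lay at 50 of the 77 histone genes in all 3 replicates (64.9%), and the background over all protein-coding genes was 60.2%. The family was therefore bound about as often as any other gene. A further 5 members had a peak in some replicates only, and 22 had none. The classes were unlike in how many members were bound: 35 of 51 in the chromosome 6 clusters (68.6%), 3 of 10 in the chromosome 1 cluster (30.0%), 7 of 8 variants (87.5%) and 5 of 8 at other locations (62.5%). Among genes with a CpG-island-like TSS (GC share of at least 0.5 and observed over expected CpG of at least 0.6 within 250 bp of the TSS), the background was 81%, and 32 of the 49 members of that kind were bound.

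The classes differed more in strength than in number. The median percentile of the bound chromosome 6 genes was 7.03, 7.27 and 8.52, and that of the variants was 73.9, 80.3 and 77.3. In each replicate 6 of the 7 bound variants lay above the strongest chromosome 6 gene, whose percentiles were 25.6, 37.5 and 22.7. The exception was MACROH2A2. The difference in median percentile, chromosome 6 minus variants, was -69.6 ± 3.18 (SD, n = 3), in the same direction in 3 of 3 replicates (exact two-sided sign-flip permutation test, p = 0.25). This is the smallest p that the sign-flip test can give with 3 replicates. Variants have more annotated TSSs than most cluster genes, and when each gene was given its 5′ end alone the difference shrank to -44.9.

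**Figure D1:**
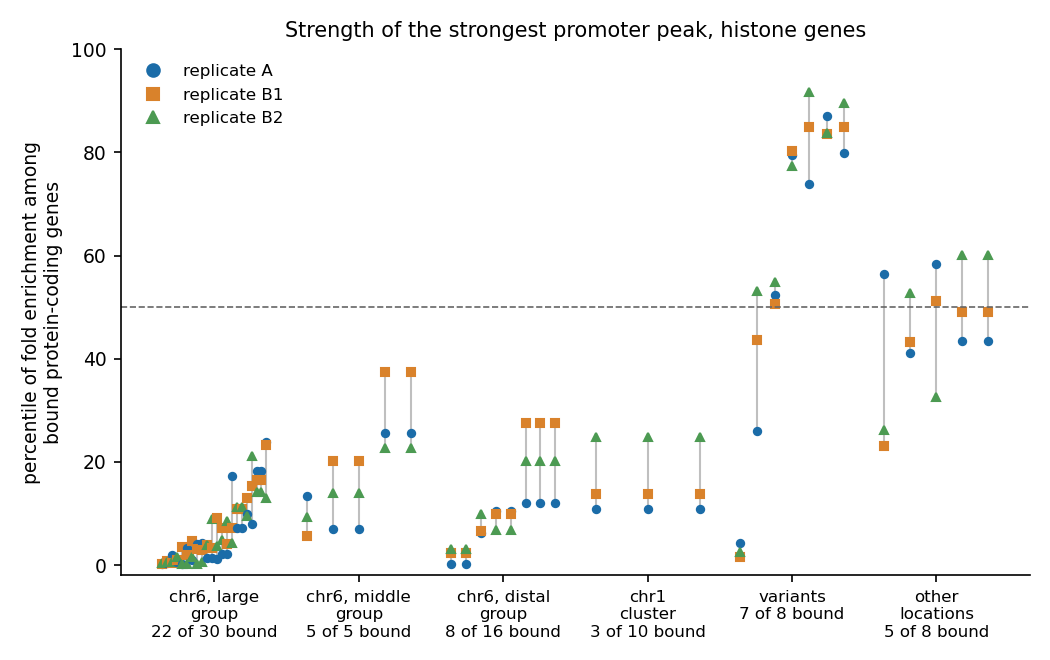
Percentile of fold enrichment (vertical axis, 0 to 100) of the strongest promoter peak among bound protein-coding genes, for each bound histone gene (1 column of points per gene, 1 point per replicate, grey lines span the replicates); the dashed line is the median of all bound genes. Chromosome 6 genes fill the bottom of the scale, and 4 of the 7 bound variants lie above 70 in every replicate.

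Over all bound members the median percentile was under the middle of the scale, with differences from 50 of -39.5, -36.7 and -37.8 points and a mean of -38.0 ± 1.45 (SD, n = 3; exact two-sided sign-flip permutation test, p = 0.25). A fold enrichment above 10 in all 3 replicates was reached by 17 of 77 members (22.1%), while the background for this stricter rule was 49.6%. These 17 were 6 of 51 genes in the chromosome 6 clusters (H1-4, H2AC12, H2BC12, H2AC17, H2BC17 and H3C12), 6 of 8 variants and 5 of 8 genes at other locations. None of the 10 chromosome 1 cluster genes was among them.

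The histone variants carried the strongest peaks of the family. H2AZ2 (chromosome 7, 44866390 to 44887686, minus strand), 1 of the 2 genes for H2A.Z, the H2A variant found beside TSSs, had a fold enrichment of 50.5, 28.7 and 27.3. Its percentiles were 87.1, 83.5 and 83.7, and 151, 95 and 94 fragments stood behind them. H2AZ1 (chromosome 4, 100869243 to 100871512, minus strand), the other H2A.Z gene, reached 34.3, 19.4 and 19.4, at percentiles 52.4, 50.6 and 54.8. In A the H2AZ1 summit lay 418 bp before the nearest TSS, while in B1 and B2 it lay 81 and 102 bp into the gene. A weaker peak in A, 84 bp into H2AZ1, had a fold enrichment of 24.3. The percentiles of the H2A.Z genes did not overlap, H2AZ2 being higher in every replicate.

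H3-3A and H3-3B encode the same protein, H3.3, which replaces H3 in transcribed chromatin. H3-3B (chromosome 17, 73772515 to 73781974, minus strand) had a fold enrichment of 46.2, 29.3 and 30.2, at percentiles 79.8, 84.9 and 89.6. H3-3A (chromosome 1, 226249552 to 226259720, plus strand) had 46.0, 27.6 and 25.3, at percentiles 79.5, 80.3 and 77.3. H3-3B was the higher of the pair in each replicate, by little in A.

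The macroH2A genes, whose product carries a large macrodomain and is known for a place in repressed chromatin, stood at opposite ends. MACROH2A1 (chromosome 5, 134670071 to 134735604, minus strand) had a fold enrichment of 43.1, 29.3 and 31.5, at percentiles 73.9, 84.8 and 91.8. MACROH2A2 (chromosome 10, 71812300 to 71872038, plus strand) had 10.3, 5.08 and 5.46, at percentiles 4.28, 1.51 and 2.56, with 30, 16 and 18 fragments. Its summits lay 126, 598 and 385 bp from the nearest TSS, so the replicates did not share 1 position.

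H2AX (chromosome 11, 118964584 to 118966175, minus strand), the H2A form phosphorylated at DNA breaks, had a fold enrichment of 23.8, 17.7 and 19.1, at percentiles 26.1, 43.6 and 53.0. H2AJ (chromosome 12, 14927339 to 14930936, plus strand) was the unbound variant, with no promoter peak in any replicate although 100% of its promoter windows are unique in the genome and its TSS is CpG-island-like. By mean percentile the order was H2AZ2 (84.8 ± 2.04, SD, n = 3), H3-3B (84.8 ± 4.90), MACROH2A1 (83.5 ± 9.03), H3-3A (79.0 ± 1.55), H2AZ1 (52.6 ± 2.10), H2AX (40.9 ± 13.7) and MACROH2A2 (2.78 ± 1.40). H2AZ2, H3-3B, MACROH2A1 and H3-3A did not differ from their neighbours in this order beyond the spread between replicates, and the values of H2AZ1 and H2AX overlapped. The steps from H3-3A to H2AZ1 and from H2AX to MACROH2A2 were larger than the spread between replicates.

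At chromosome 6, histone genes fall into 3 groups: 30 genes from 25723625 to 26285866, 5 from 27093676 to 27115341 and 16 from 27775257 to 27861669. The large group had 22 of 30 genes bound (73.3%), the middle group 5 of 5 and the distal group 8 of 16 (50%). The background over all protein-coding genes was 60.2%. Every core and linker family had bound genes, 3 of 6 H1 genes, 9 of 12 H2A, 9 of 13 H2B, 8 of 10 H3 and 6 of 10 H4 genes, beside the same background. Of the 9 bound H2B genes, 3 had their strongest summit within 250 bp of their own TSS in every replicate. Median fold enrichment over the 35 bound genes was 12.7, 7.69 and 7.75, and in A it ranged from 4.83 to 23.5.

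**Figure D2:**
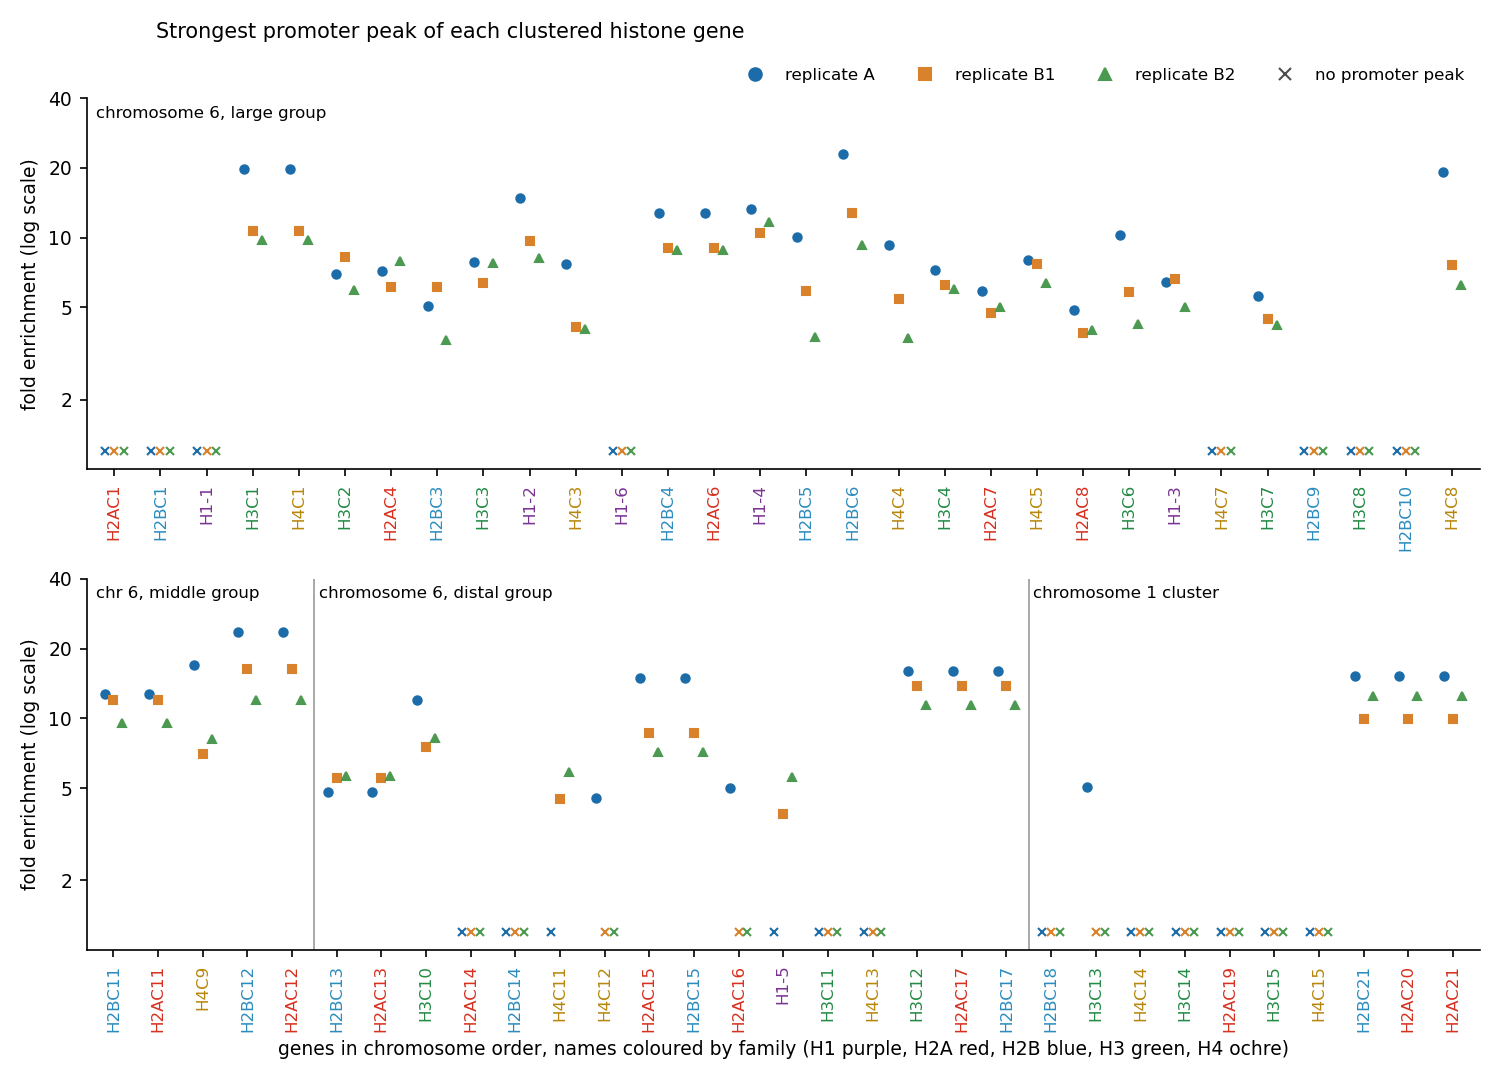
Fold enrichment (vertical axis, log scale) of the strongest promoter peak in each replicate for the 51 chromosome 6 genes and the 10 genes of the chromosome 1 cluster, in chromosome order along the horizontal axis; crosses mark replicates without a promoter peak. Bound and unbound genes are interspersed along chromosome 6, and on chromosome 1 the bound genes are the last 3.

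H2AC12 and H2BC12, the head-to-head H2A and H2B pair that ends the middle group, had the strongest peak of the chromosome 6 clusters. Its fold enrichment was 23.5, 16.3 and 11.98, at percentiles 25.6, 37.5 and 22.7. H2BC6 (chromosome 6, 26172287 to 26184883, plus strand) followed with 22.9, 12.8 and 9.32, at percentiles 24.0, 23.2 and 13.1. The H2BC6 summits lay 116, 165 and 129 bp into the gene from the annotated start at 26172287, outside its coding sequence. The TSS of its main transcript is at 26183989, so this peak is not at that TSS. H2AC12, H2BC12 and H2BC6 were the 3 highest genes by mean percentile, and even they stayed under the median of bound genes in every replicate.

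The lowest bound genes of the chromosome 6 clusters were H2AC8, H3C7 and H4C3. H2AC8 had a fold enrichment of 4.89, 3.86 and 4.00, at percentiles 0.148, 0.194 and 0.453, and its peak rested on 17, 16 and 14 fragments. H3C7 had 5.61, 4.45 and 4.18, at percentiles 0.449, 0.746 and 0.630. In B1 the peak counted for H3C7 had its summit 752 bp from the TSS, beyond the end of the gene. No summit lay within 250 bp of the H3C7 TSS in B1. H4C3 had 7.70, 4.09 and 4.05, at percentiles 1.91, 0.395 and 0.498. H2AC8, H3C7 and H4C3 were thus among the weakest bound protein-coding genes, although a peak within reach of their TSS was called in each replicate. The smallest peaks of the lists held 8, 8 and 10 fragments.

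Linker histone genes, which encode the H1 proteins that sit where DNA enters and leaves the nucleosome, showed both states side by side. H1-4 had a fold enrichment of 13.3, 10.47 and 11.6. H1-2 had 14.8, 9.66 and 8.19, and H1-3 had 6.42, 6.61 and 5.02. H1-1 and the testis form H1-6 had no promoter peak in any replicate, and H1-5 had one in B1 (3.86) and B2 (5.59) but not in A. The 150 bases before the TSS of a bound and an unbound H1 gene are shown because CCAAT and TATAAA stand at nearly the same place in both, read on the gene's strand from GRCh37 at chr6:26156407-26156556 (plus strand) and chr6:26018016-26018165 (minus strand). Capitals mark matches on either strand to TATAAA, to CCAAT and to AAACACA, the core of the H1 box, and neighbouring matches can overlap.
H1-4 (bound): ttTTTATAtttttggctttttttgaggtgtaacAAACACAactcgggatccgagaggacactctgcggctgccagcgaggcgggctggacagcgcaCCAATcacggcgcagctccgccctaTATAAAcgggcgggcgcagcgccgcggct
H1-1 (no peak): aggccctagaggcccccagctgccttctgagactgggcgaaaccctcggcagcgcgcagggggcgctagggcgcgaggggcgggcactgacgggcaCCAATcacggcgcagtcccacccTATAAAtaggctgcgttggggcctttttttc

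The H1 box core was found in 8 of the 10 H1 genes within 250 bp before and 50 bp after the TSS, and in 4.21% of all promoters of that length. Both H1-4 and H1-1 have it in that window, in H1-1 outside the bases printed. A match of this kind is a description of letters and not a site of binding.

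Most H2A and H2B genes sit in head-to-head pairs that share the sequence between their TSSs. There were 11 head-to-head pairs of members with TSSs at most 1 kb apart, 194 to 979 bp. In 8 of them both genes were bound, and all 8 were pairs of an H2A with an H2B gene. H2AC1 with H2BC1, and H2AC14 with H2BC14, had no promoter peak, and in the pair of H3C7 with H2BC9 H3C7 alone was bound. The intervening sequence is shown for 4 pairs that span the range from the strongest to no peak, read on the plus strand of GRCh37 from TSS to TSS: chr6:27114634-27114885, chr6:27775707-27775951, chr6:27782555-27782800 and chr1:149858232-149858468. Capitals mark matches on either strand to TATAAA and CCAAT, to the octamer ATTTGCAT that binds POU2F1 in H2B promoters, and to GGTCCG, the core of an H4 promoter element bound by HINFP.
H2BC12/H2AC12 (strongest on chromosome 6): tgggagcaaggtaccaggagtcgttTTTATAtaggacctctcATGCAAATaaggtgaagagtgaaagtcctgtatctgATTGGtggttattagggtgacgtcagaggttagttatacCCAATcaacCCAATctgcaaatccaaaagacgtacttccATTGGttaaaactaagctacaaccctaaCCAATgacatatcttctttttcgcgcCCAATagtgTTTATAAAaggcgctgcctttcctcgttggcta
H2BC13/H2AC13 (weakest bound pair): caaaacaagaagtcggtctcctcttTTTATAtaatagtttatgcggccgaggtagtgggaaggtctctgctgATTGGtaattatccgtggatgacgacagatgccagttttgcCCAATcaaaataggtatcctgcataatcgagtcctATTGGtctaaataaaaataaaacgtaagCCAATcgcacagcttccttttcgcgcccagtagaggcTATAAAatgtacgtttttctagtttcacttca
H2AC14/H2BC14 (no peak): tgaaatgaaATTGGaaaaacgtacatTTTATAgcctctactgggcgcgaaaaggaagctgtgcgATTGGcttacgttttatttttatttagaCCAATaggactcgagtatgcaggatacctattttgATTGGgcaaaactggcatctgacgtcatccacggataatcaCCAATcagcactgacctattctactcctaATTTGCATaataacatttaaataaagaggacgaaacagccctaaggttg
H2BC21/H2AC20 (chromosome 1): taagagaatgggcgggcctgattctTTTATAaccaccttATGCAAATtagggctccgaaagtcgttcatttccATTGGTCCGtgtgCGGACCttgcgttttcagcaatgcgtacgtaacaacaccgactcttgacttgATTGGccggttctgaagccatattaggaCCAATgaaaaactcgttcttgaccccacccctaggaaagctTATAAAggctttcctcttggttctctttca

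The unbound H2AC14 and H2BC14 keep the octamer and hold 5 matches to CCAAT, while the strongest pair holds 6 and the weakest bound pair 4. The 1001 bases about the TSS of H2AC14 are identical to those of H2AC13 at 844 positions (84.3%, no gaps, gene strand). For H2BC14 and H2BC13 the same comparison gave 821 positions (82.0%). H2AC13 and H2BC13 shared a peak with a fold enrichment of 4.83, 5.55 and 5.66, from 20, 18 and 19 fragments. Its summit lay 89, 178 and 117 bp into H2BC13. Of the 50-base windows within 500 bp of the TSS, 61.7% were unique at H2AC13, 65.7% at H2AC14, 73.9% at H2BC13 and 79.1% at H2BC14. The part of this in their values was not tested.

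Summits did not fall in the shared stretch. Of all peaks with a summit within 1 kb of the 8 bound pairs, 0 had it between the TSSs. The strongest peak of a pair lay on the H2A side in all 3 replicates for 6 pairs, on the H2B side for H2AC13 with H2BC13, and on either side for H2AC15 with H2BC15. Weaker peaks often lay on the other side: in 17 of 24 combinations of pair and replicate, summits were found within 500 bp into both genes. H2AC17 with H2BC17 was nearly even in A alone and leaned to the H2A side in B1 and B2, with 16.0, 13.8 and 11.5 on the H2A side and 15.5, 10.2 and 6.81 on the H2B side. H2AC12 with H2BC12 leaned to the H2A side, with 23.5, 16.3 and 11.98 against 12.9, 6.52 and 4.61 on the H2B side.

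**Figure D3:**
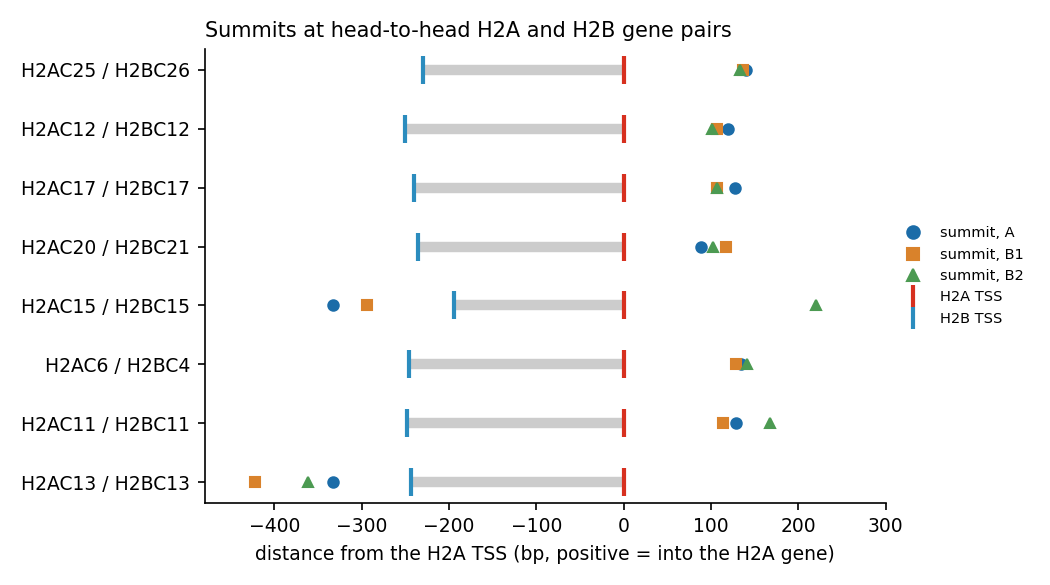
Summit of the strongest peak in each replicate at the 8 bound head-to-head pairs, in bp from the H2A TSS (horizontal axis, positive into the H2A gene); grey bars join the TSSs. In 6 pairs all 3 summits sit 88 to 168 bp into the H2A gene, and none lies on a grey bar.

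The H2AC12 summit is shown as an example of where the peaks centre, because it lies in coding sequence in every replicate. The 61 bases about each summit are read on the plus strand, which is also the gene's strand, with the summit base in capitals. They are chr6:27114974-27115034 in A, chr6:27114962-27115022 in B1 and chr6:27114956-27115016 in B2, 119, 107 and 101 bp into the gene.
Replicate A: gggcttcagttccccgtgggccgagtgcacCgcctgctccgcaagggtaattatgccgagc
Replicate B1: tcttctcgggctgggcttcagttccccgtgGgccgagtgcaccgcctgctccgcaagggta
Replicate B2: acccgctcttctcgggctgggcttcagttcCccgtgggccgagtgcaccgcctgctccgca

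Over the family the summits of the strongest peaks lay just inside the genes. The median distance from the nearest TSS of the gene was 119, 107 and 115 bp, and over all bound protein-coding genes it was 76, 73 and 75 bp. Of the members, 53 of 77 have 1 annotated TSS, beside 3198 of 20085 other protein-coding genes. A gene with more TSSs can have a nearer one, and the part of this in the difference was not tested. In the chromosome 6 clusters 22 of 35 bound genes had all 3 summits 50 to 200 bp into the gene. The summit lay in the gene's own coding sequence in every replicate for 22 of the 35, not wholly the same genes. Taken replicate by replicate, 27, 24 and 25 of the 35 had their summit in the band of 50 to 200 bp. The share among bound protein-coding genes, also by replicate, was 53.2%, 51.9% and 52.6%. A share with all 3 summits in the band was not computed over all genes. The strongest peak can belong to a neighbour in so dense a cluster. A summit within 250 bp of a TSS of the gene itself, in all 3 replicates and for any peak, was found for 42 of 77 members (54.5%), with a background of 52%. Of these 42, all 3 summits lay 50 to 200 bp into the gene for 36, a count without a background over all genes.

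**Figure D4:**
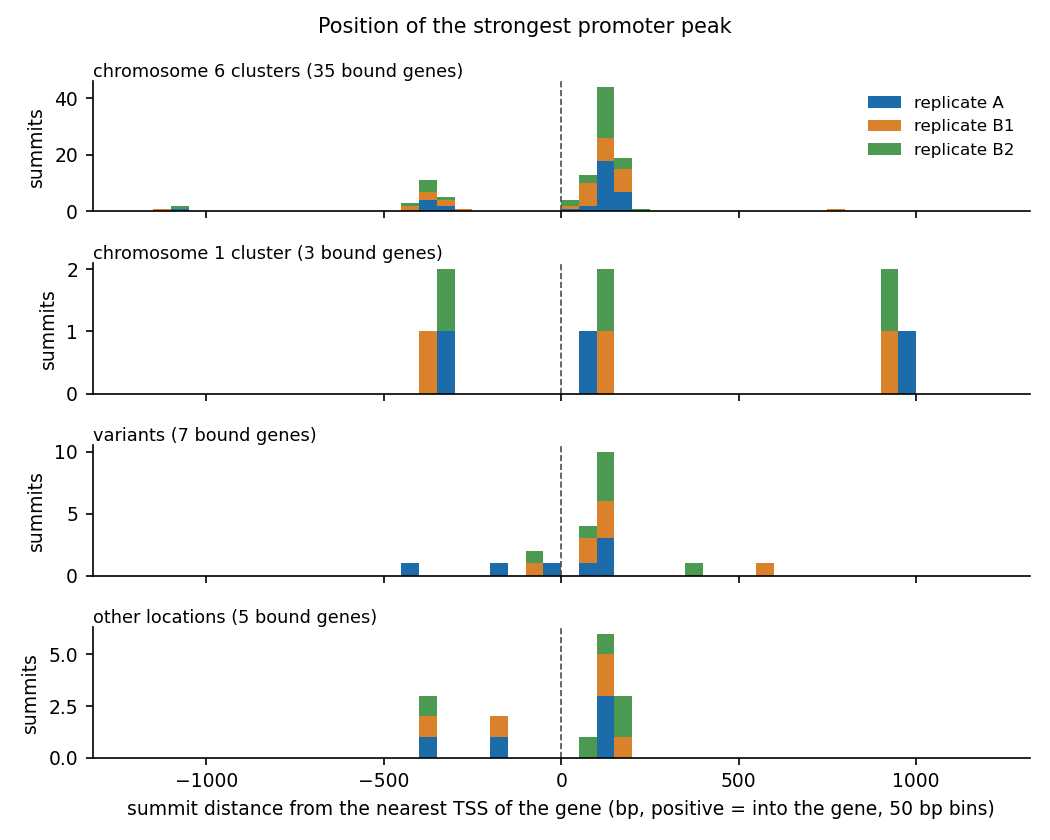
Number of summits (vertical axis) by distance from the nearest TSS of the gene in bins of 50 bp (horizontal axis, positive into the gene), for each class with replicates stacked in colour. Most summits of the chromosome 6 genes stand at 50 to 200 bp, and those far on the negative side include peaks of a partner gene counted again for its head-to-head neighbour.

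Shared peaks reduce the number of independent regions. The 50 bound members rested on 39 groups of peaks: 30 of 1 member, 7 of 2 and 2 of 3, so that 20 members shared their strongest peak with another. H3C12 was counted through a second annotated TSS beside H2AC17 and H2BC17, whose peak it shared. H4C1 shared the peak of H3C1 (19.8, 10.7 and 9.74) and had a weaker peak of its own 103, 82 and 58 bp into the gene, with 12.002, 6.28 and 7.41.

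H4 genes of the clusters showed the same mixture of states. H4C9 of the middle group had a fold enrichment of 17.1, 7.04 and 8.19, while H4C13 and H4C7 had no promoter peak in any replicate. H4C12 had a peak in A only (4.52), and H4C11 in B1 (4.50) and B2 (5.87) only. The 150 bases before the TSS of a bound gene, an unbound gene in unique sequence and an unbound gene in repeated sequence are shown with GGTCCG and also CCAAT and TATAAA in capitals. They are read on the gene's strand from chr6:27106911-27107060 (plus), chr6:27841313-27841462 (minus) and chr1:149804071-149804220 (plus).
H4C9 (bound): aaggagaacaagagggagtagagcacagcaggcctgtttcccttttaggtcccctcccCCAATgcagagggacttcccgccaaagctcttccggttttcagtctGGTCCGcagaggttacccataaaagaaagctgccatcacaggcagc
H4C13 (no peak): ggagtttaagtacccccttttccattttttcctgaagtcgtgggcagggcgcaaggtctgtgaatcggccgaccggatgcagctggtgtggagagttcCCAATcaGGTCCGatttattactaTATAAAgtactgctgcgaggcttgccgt
H4C14 (no peak): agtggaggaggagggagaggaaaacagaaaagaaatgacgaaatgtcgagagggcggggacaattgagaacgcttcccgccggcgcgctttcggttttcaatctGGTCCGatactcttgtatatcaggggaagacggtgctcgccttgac

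GGTCCG was found in 11 of 13 H4 genes, against 14.6% of all promoters, and it stands in bound and unbound H4 genes alike. The octamer was found in 13 of 17 H2B and 12 of 16 H2A genes and in 1.58% of all promoters. TATAAA was found in 45 of the 69 members that are not variants (9.80% of all promoters) and CCAAT in 57 (35.9%). Matches were thus present both where a peak was called and where none was. H2AZ2, with the strongest peak of all members by mean fold enrichment, has CCAAT on the reverse strand and neither TATAAA nor GGTCCG in its 150 bases, chr7:44887687-44887836 on the minus strand.
H2AZ2 (bound): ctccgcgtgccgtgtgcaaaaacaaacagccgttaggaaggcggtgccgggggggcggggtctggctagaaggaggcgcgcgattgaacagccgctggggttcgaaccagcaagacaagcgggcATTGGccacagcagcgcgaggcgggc

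PHF8 is known at CpG-rich promoters, so the chromosome 6 genes were split by this feature. Of the 24 genes in these clusters without a CpG-island-like TSS, 17 were bound (70.8%), beside a background of 17.7% among protein-coding genes outside the family. These 17 include H2BC11, H2BC12 and H2BC17, whose strongest peak had its summit in a CpG-island-like H2A partner in every replicate. They also include H2BC6, bound at another annotated TSS than the one whose sequence was scored. All of the 24 except H1-1 and H2BC3 fell short on GC share alone and kept an observed over expected CpG above 0.6. The genes outside the family without a CpG-island-like TSS had a median GC share of 52.1%, so most of them fell short on CpG ratio. The compared sets thus differ in the feature used for the split. Of the 27 with a CpG-island-like TSS, 18 were bound (66.7%), beside 81.1% outside the family. The bound shares of the sets within the clusters were thus close. The bound genes without a CpG-island-like TSS had median percentiles of 4.06, 4.72 and 6.76, against 25.7, 24.5 and 25.6 for those outside the family. Those with one had 7.497, 8.16 and 8.97, against 52.4, 52.7 and 52.6. Genes with 1 TSS and under 1 kb long gave a similar picture: 25 of 40 were bound on chromosome 6 (62.5%), and the background outside the family was 7.43%, 33 of 444. Of those 444 genes, 159 have olfactory receptor and 61 keratin-associated symbols, families known from the nose and from hair, so the sets differ in kind.

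**Figure D5:**
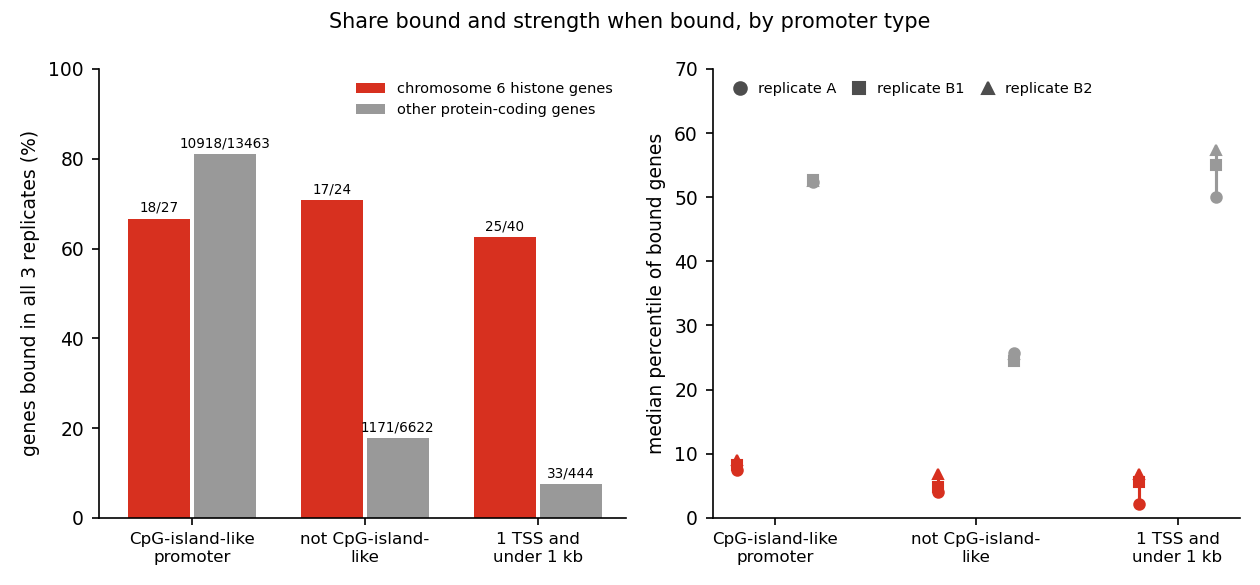
Left, percent of genes bound in all 3 replicates for the chromosome 6 histone genes (red) and other protein-coding genes (grey) by promoter type, with bound and total numbers above the bars; right, median percentile of the bound genes in each replicate. Without a CpG-island-like TSS 70.8% of the histone genes and 17.7% of other genes were bound, while in all 3 types the red medians lie under 10. The sets without a CpG-island-like TSS differ in median GC share, 47.7% against 52.1%. Nearly all of the histone genes in that set fell short on GC share alone, and most of the other genes on CpG ratio.

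The local background at the summit was higher in the clusters. The expected number of fragments at the summits of bound chromosome 6 genes had a median of 2.23, 2.75 and 2.78, beside 1.76, 2.11 and 2.24 over all bound protein-coding genes. Other bound genes of chromosome 6 had 1.57, 1.93 and 2.04. Fragments not divided by background were also few, with a median of 37, 30 and 28 at the chromosome 6 genes and 117, 84 and 80 at the variants. Ranked by fragments in place of fold enrichment, the difference of chromosome 6 and variants in median percentile was -59.7. The higher background moved with the weaker peaks, and its part in the result was not tested.

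In the chromosome 1 cluster (149754245 to 149859515) the bound genes were H2BC21, H2AC20 and H2AC21, neighbours at its end. They shared a strongest peak with a fold enrichment of 15.2, 9.91 and 12.5, at percentiles 10.8, 13.8 and 24.8, with its summit 88, 117 and 102 bp into H2AC20. H2BC21 also had a peak 70, 92 and 135 bp into the gene with 12.9, 8.47 and 11.6. H2AC21 had one 121, 201 and 63 bp into the gene with 8.51, 7.16 and 6.003. Each gene of this trio was thus marked at its own start. The median percentile of this trio exceeded that of the chromosome 6 genes by 3.80, 6.51 and 16.2 points (mean 8.85 ± 6.54, SD, n = 3; exact two-sided sign-flip permutation test, p = 0.25). The difference from the variants was -63.03, -66.55 and -52.6 points (mean -60.7 ± 7.27, SD, n = 3; exact two-sided sign-flip permutation test, p = 0.25), and -36.2 with 1 TSS per gene. As the trio shared 1 peak, it counts as 1 region.

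The other 7 genes of the chromosome 1 cluster lie in repeated sequence. H4C14, H4C15, H3C14, H3C15 and H2AC19 had no unique 50-base window within 500 bp of the TSS (0%), and none had a promoter peak. H4C14 and H4C15 were identical at 1001 of 1001 bases about the TSS, and so were H3C14 and H3C15. H2BC18 had 40.1% unique windows and no promoter peak, and H3C13 had 28.4% and a peak in A only (5.06, 12 fragments). All 7 were thus under 50% unique, and of the 786 protein-coding genes of that kind 65 were bound (8.27%). Among the 18466 genes with at least 90% unique windows the share was 63.7%. How the authors treated reads that fit several places is not given in the sources used here, so the absence of a peak at these 7 genes cannot be told apart from a loss of reads.

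Other unbound members lie in unique sequence. Of the 22 members with no peak, 13 had at least 90% unique windows. On chromosome 6 these were H2AC1, H2BC1, H1-1, H1-6, H4C7, H2BC9, H3C8, H2BC10, H3C11 and H4C13, and the share bound was 30 of 42 (71.4%) at 90% unique or above and 5 of 9 below. H2AC14 and H2BC14 had 65.7% and 79.1%. H2BC9, H3C8 and H2BC10 lie next to each other near the end of the large group, and H3C11 and H4C13 lie side by side in the distal group. The 5 members with a peak in some replicates had 3.86 to 5.87 in fold enrichment where called. H2AC16 (98.0% unique, 4.99 in A only) and H1-5 (100%) stood in unique sequence, and H4C11, H4C12 and H3C13 did not.

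The forms made in the germ line had no promoter peak. H2AC1 and H2BC1 (testis), H1-6 and H1-7 (testis) and H1-8 (oocyte) were unbound in every replicate, 0 of 5, with 99.5% to 100% unique windows. Without them 50 of 72 members were bound (69.4%), against the background of 60.2%.

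Genes at other locations were nearer to the median of bound genes. H2AC25 and H2BC26, a head-to-head pair on chromosome 1 far from the cluster, shared a peak with a fold enrichment of 30.8, 19.1 and 20.7, at percentiles 43.5, 49.1 and 60.1. H1-10 (chromosome 3, 129033614 to 129035129, minus strand) had 29.8, 17.5 and 19.0, at percentiles 41.1, 43.2 and 52.7. H4C16 (chromosome 12, 14920933 to 14924065, minus strand), an H4 gene outside the clusters, had 35.8 in A but 12.7 and 12.8 in B1 and B2, at percentiles 56.4, 23.0 and 26.3. The ranges of percentiles over replicates overlapped between these genes. H1-7, H1-8 and H2BC12L were unbound. The 5 bound genes at other locations, which rested on 4 groups of peaks, had a median peak width of 837, 818 and 766 bp, beside 387, 349 and 303 bp for the chromosome 6 genes and 824, 721 and 673 bp over all bound genes.

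Genes for the making and handling of histones were also looked up. All 14 genes of a list for the transcription and 3′ processing of histone RNA had a promoter peak in all 3 replicates, beside 60.2% of all protein-coding genes and 81% of those with a CpG-island-like TSS. Their median mean percentile was 53.0 (25.8 to 96.8), close to the middle of all bound genes. NPAT had a fold enrichment of 31.2, 20.1 and 15.8. SLBP had 33.5, 19.4 and 18.7, CASP8AP2, which works with NPAT, had 37.7, 22.5 and 17.1, and HINFP had 30.0, 13.6 and 14.5. CPSF2, part of the cleavage complex, was the highest of the list with 57.7, 40.8 and 36.7. All 16 histone chaperones listed were bound as well, against the same backgrounds of 60.2% and 81%. Their median was 51.7, also near the middle of bound genes, from ASF1A (16.0, 7.16 and 7.91) to HIRA (59.1, 36.8 and 46.3), which deposits H3.3. Over the bound chromosome 6 genes the mean of the 3 replicate medians was 7.61, a statistic built otherwise than these list medians.

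Of 16 protein-coding histone genes outside the naming rule, such as the testis forms of the H2AB, H2AL, H2BW and H3Y types, CENPA alone was bound, beside 60.2% of all protein-coding genes. Under 50% of the promoter windows were unique at H2AB1 (5.25%), H2AB2 (0%), H2AB3 (0%) and H3-7 (46.0%), where a lack of peaks cannot be told apart from a loss of reads. CENPA, the H3 variant of centromeres, had 30.7, 26.6 and 26.2, at percentiles 43.3, 77.5 and 80.6.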

How the data were processed

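PHF8 ChIP-seq peaks from 3 replicates of SKMEL-147 cells were used. According to the deposited labels and the paper's methods, reads were aligned to hg19 (GRCh37) with Bowtie2, and peaks were called with MACS for each replicate separately against input. The submitters' processing notes also name Picard and bcl2fastq. Duplicate handling, the MACS version, read length and read totals are not given in the sources used here. The q cutoff in the methods was taken to mean below 0.05. The authors deposited the fold enrichment as a linear ratio of ChIP over local background at the summit. The p- and q-values of each peak were deposited by the authors as −log10 values. The deposited score is 10 times the −log10 q-value in whole numbers and was not used as a measurement.

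Peaks were assigned to genes of GENCODE 44 (lifted to GRCh37) when they overlapped 1 kb on either side of any TSS. ChIP fragments and the local background were recovered from fold enrichment and p-value (100% of peaks, tolerance 0.001 in −log10 p). Intervals are not given, since fragments bear on counting error only. Uniqueness is the percent of 50-base windows within 500 bp of the TSS that occur once in the genome. Motifs were searched on both strands from 250 bp before to 50 bp after the TSS. Differences between classes were tested by an exact sign-flip permutation test over replicates. Scripts were tested on simulated data. Python 3.11.15, pandas 2.3.3, NumPy 2.4.6, SciPy 1.17.1 and numba 0.67.0 were used.

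The members and lists were chosen with earlier results of these data known. Named with values were the 3 highest and 3 lowest bound members by mean percentile in each class, all variants, all unbound members, germ-line forms and members called in some replicates only. 1 bound member at another location is not reported here by name. Other genes named for their family or pair were chosen after their values were seen. Alternatives covered the window, the TSS set, thresholds, the overlap rule, left-out replicates, fragments in place of fold enrichment and window length. The 2 input libraries are not analysed here on their own.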

Additional observations from a re-analysis of the deposited data

How the results depend on the processing

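Apart from the 2 settings added after seeing the data, 147 values were judged the same, 5 moved by more than the set margin and 1 reversed. The margin was a set ratio for counts and the SD over replicates for summit distances. Differences tested were judged by direction alone, since the exact sign-flip test over 3 replicates gives no p below 0.25, and some that kept it shrank: with 1 TSS per gene chromosome 6 minus variants went from -69.6 to -44.9 and chromosome 1 minus variants from -60.7 to -36.2. With only peaks above a fold enrichment of 10, 17 members were bound, 6 on chromosome 6 and 0 in the chromosome 1 cluster, in 13 peak groups. Under that rule the difference of all members from 50 shrank from -38.0 to -14.6 and no chromosome 1 value could be computed. With a TSS window of 500 bp the mean of the median summit distance in the chromosome 1 cluster turned to -48.0 bp from 102.3 bp, and with 1 TSS per gene that of the variants was 184.3 bp. The 2 added settings moved further values. With promoters of at least 90% unique sequence, 1 chromosome 1 gene (summit distance 944.7 bp) and 3 genes at other locations were bound. With members whose strongest summit lay within 250 bp of their own TSS in every replicate, 1 chromosome 1 gene was bound. Their construction leaves fewer members. The cause of the other changes was not tested.

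Leaving out each replicate in turn gave 50 to 52 bound members, 35 to 37 on chromosome 6, and 3, 7 and 5 in the chromosome 1, variant and other classes. The difference of chromosome 6 and variants ranged from -71.8 to -67.4, that of chromosome 1 and variants from -64.1 to -57.4, that of chromosome 1 and chromosome 6 from 5.15 to 12.3, and that of all members from 50 from -38.3 to -37.2. Recovered fragments at the weakest peaks limit what could be called. No paired analysis was possible because a single group has peak lists.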

Other observations

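The large group on chromosome 6 also holds 9 protein-coding genes that are not members, of which 4 were bound: HFE, TRIM38, the H4 gene HIST1H4B and a readthrough gene that shares the peak of H2AC7. HFE, an iron regulator, had a fold enrichment of 11.2, 8.93 and 7.497 in replicates A, B1 and B2, and TRIM38 had 27.5, 9.32 and 10.8. SLC17A1, SLC17A2, SLC17A3 and SLC17A4, a run of phosphate transporter genes, were not bound. HIST1H4B, an H4 gene that the annotation lists under an older symbol and that the naming rule therefore missed, was bound with 11.4, 7.25 and 8.27, within the range of the chromosome 6 members. HIST2H2AA3, an H2A gene of the chromosome 1 cluster under an older symbol, was not bound, and 0% of its promoter windows were unique. BOLA1, which overlaps the end of the chromosome 1 cluster, was bound with 37.9, 21.2 and 17.7, at percentiles 61.7, 58.0 and 47.1. These values were above those of the bound histone genes of that cluster in every replicate. The BOLA1 peak did not reach the 1 kb on either side of the H2AC21 TSS, where the strongest peak had 15.2, 9.91 and 12.5. It therefore lay further along BOLA1 and not at the overlap.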
